A study of Mus musculus with 96 samples.

Results

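The genes described here encode the oxidative phosphorylation machinery: the 4 complexes of the respiratory chain (I to IV) and the ATP synthase (complex V). They were taken by gene symbol from the deposited tables: symbols beginning with Ndufa, Ndufb, Ndufc, Ndufs, Ndufv, Sdh, Uqcr, Cox4 to Cox8 or Atp5, and the protein-coding genes of mitochondrial DNA, without assembly factors, Ndufa4l2 and symbols marked as pseudogenes. This gave 101 of 39179 genes, 88 nuclear and 13 mitochondrial. Complex I held 39 nuclear and 7 mitochondrial genes, complex II 4 nuclear genes, complex III 8 nuclear and 1 mitochondrial, complex IV 20 and 3, and complex V 17 and 2. Ndufa4, once counted with complex I, was placed with complex IV, and Cox7a2l, which joins complexes III and IV into supercomplexes, was kept with complex IV by its symbol. The annotation gives 4 of the 101 as processed pseudogenes (Ndufa11b, Ndufb4c, Ndufs6b and Cox6c2).

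Complexes I, III and IV pass electrons from NADH to oxygen and pump protons out of the mitochondrial matrix, complex II feeds electrons in from succinate without pumping, and complex V uses the returning protons to make ATP. Nuclear genes are transcribed singly and their proteins imported, while mitochondrial DNA is copied into long transcripts that are cut into separate mRNAs, so that each complex except II is built from the products of both genomes. The striatum is rich in projection neurons with a high demand for ATP, and impaired complex activity has long been studied in Huntington's disease, which is caused by an expanded CAG repeat in the huntingtin gene.

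mRNA of the striatum was sequenced in C57BL/6 mice that were wild type or heterozygous for a knock-in Htt allele labelled Q20, Q50, Q92 or Q140 after its CAG length, at 6 and 10 months of age. Each of the 12 groups had 8 libraries, 4 from females and 4 from males, called F1 to F4 and M1 to M4. At each age there were 2 wild-type (WT) groups, one housed with Q20 and one with Q50 mice (the Q20-cohort and Q50-cohort WT). Q92 and Q140 mice were housed with their own genotype alone, so no WT of their own cohort was labelled. Q20 and Q50 mice were set against the 8 WT of their own cohort, and Q92 and Q140 mice against the same 16 WT, so that the Q92 and Q140 comparisons share their controls. The design text calls the WT littermates; nothing else in the labels says that each library came from its own animal, and p-values measure the spread between these libraries. Q20 lies in the range of alleles that do not cause disease, and all knock-in mice keep 1 WT Htt allele.

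Libraries held 29.1 to 40.2 M counts (M for mega). A list of 25 genes of striatal projection neurons averaged between 8.02 and 9.13 log2 CPM (counts scaled to an equal library total) in all libraries but 3. These were Q20 F4, Q20 M4 and Q92 F1 of 10 months, at 6.71, 7.10 and 7.40 log2 CPM, and they were the highest of all libraries in 10 thalamus genes (6.37, 6.69 and 6.41 log2 CPM). Q92 M4 at 6 months stood apart in 9 skeletal muscle genes (mean 1.08 log2 CPM), but its values of the muscle isoforms Cox6a2, Cox7a1 and Cox8b were not high. Without these 4 libraries, 3 of the calls named below were lost: Ndufs1 in Q140 mice at 6 months, Ndufa5 in the trend with CAG length at 6 months and mt-Nd6 in that trend at 10 months.

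The 300-base promoter windows of 4 nuclear genes named in the results below are printed here. Ndufs3, a core subunit of complex I, was lower at both ages in Q140 mice. Atp5g1, one of the genes for the ring subunit c of ATP synthase, was higher at both ages. Cox6b2 had the largest called change at 10 months. Ndufa5, an accessory subunit of complex I, was lower at 6 months, one of the less steady calls described below. Each window runs 5′ to 3′ on the gene's strand, from 250 bases before to 50 bases after a RefSeq start (build GRCm38.p6, minus strand in all 4): chr2:90904672-90904971 for Ndufs3, chr11:96075582-96075881 for Atp5g1, chr7:4753045-4753344 for Cox6b2 and chr6:24527477-24527776 for Ndufa5. Another Ndufa5 window from a different start, chr6:24527641-24527940, is not printed. Capitals mark matches, on either strand, to the motifs described in the next paragraph.
Ndufs3: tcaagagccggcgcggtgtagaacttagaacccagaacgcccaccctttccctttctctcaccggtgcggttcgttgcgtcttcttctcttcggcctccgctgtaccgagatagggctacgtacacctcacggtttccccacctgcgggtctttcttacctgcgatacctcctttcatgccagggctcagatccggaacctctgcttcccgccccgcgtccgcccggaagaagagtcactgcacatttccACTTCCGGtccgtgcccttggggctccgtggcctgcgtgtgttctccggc
Atp5g1: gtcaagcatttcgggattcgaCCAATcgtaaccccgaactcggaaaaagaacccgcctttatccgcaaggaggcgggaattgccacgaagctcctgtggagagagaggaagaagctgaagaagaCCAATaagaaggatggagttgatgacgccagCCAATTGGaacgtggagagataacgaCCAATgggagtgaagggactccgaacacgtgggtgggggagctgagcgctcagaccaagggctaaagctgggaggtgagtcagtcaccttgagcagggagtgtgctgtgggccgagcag
Cox6b2: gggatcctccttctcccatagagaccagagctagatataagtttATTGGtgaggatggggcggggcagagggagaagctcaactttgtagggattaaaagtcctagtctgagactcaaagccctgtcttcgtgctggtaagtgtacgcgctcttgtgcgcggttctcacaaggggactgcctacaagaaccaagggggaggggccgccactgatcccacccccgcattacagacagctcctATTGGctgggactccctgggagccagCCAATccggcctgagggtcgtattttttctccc
Ndufa5: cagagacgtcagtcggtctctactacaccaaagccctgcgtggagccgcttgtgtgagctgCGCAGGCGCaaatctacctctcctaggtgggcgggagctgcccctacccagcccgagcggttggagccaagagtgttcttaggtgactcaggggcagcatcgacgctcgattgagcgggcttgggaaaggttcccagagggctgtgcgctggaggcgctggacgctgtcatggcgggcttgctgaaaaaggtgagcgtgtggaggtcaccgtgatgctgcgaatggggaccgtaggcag

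In Ndufs3 the capitals are the letters CCGGAAGT read on the other strand, a match to the ETS family motif. In Atp5g1 they are 5 CCAAT boxes, of which 2 on opposite strands overlap in CCAATTGG. Cox6b2 has 3 CCAAT boxes, 2 of them on the other strand, and Ndufa5 has 1 match to CGCANGCGC, the core of the motif of NRF1, a transcription factor known for its sites before respiratory chain genes. RefSeq windows were found for 67 of the 88 nuclear genes (72 windows). CGCANGCGC stood in 33.3% of the 72 windows, against 6.31% of all 32851 windows of the same length. AAGATGGC, the YY1 motif, stood in 12.5% against 2.75%, CCGGAAGT in 6.94% against 3.89%, TCAAGGTCA, the ERR motif, in 2.78% against 0.42%, and CCAAT in 41.7% against 37.4%, both strands searched for each. The windows of the respiratory genes held a median of 19 CG dinucleotides, against 7 in all windows. A match is a description of letters and not of binding.

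In WT striatum the mitochondrial mRNAs stood far above the nuclear ones per base of transcript. The deposited FPKM (fragments per kilobase of transcript, scaled to an equal library total) averaged 19760 ± 1056 for mt-Co1, the catalytic subunit of complex IV (SD, n = 32 WT libraries), and 2505 ± 262 for mt-Nd4l, a small membrane subunit of complex I and the lowest of the 13. The highest nuclear gene was Atp5b, the catalytic β subunit of ATP synthase, with 519 FPKM, and Cox4i1, Atp5a1, Cox6c and Ndufa4 followed with 423, 313, 305 and 289. The mitochondrial genes ran in the order mt-Co1, mt-Atp6, mt-Co2, mt-Co3, mt-Cytb, mt-Atp8, mt-Nd1, mt-Nd4, mt-Nd2, mt-Nd3, mt-Nd5, mt-Nd6 and mt-Nd4l. The 3 of complex IV lay between 14830 and 19760 FPKM and the 7 of complex I between 2505 and 8073. mt-Nd6 is the one encoded on the light strand. It overlaps mt-Nd5 by 14 bases on the opposite strand, and mt-Atp8 and mt-Atp6 share 43 bases; strand use in the counting is not given in the sources used here, so reads in these overlaps cannot be assigned to one gene.

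Nuclear levels differed between complexes. The median was 65.6 FPKM over the 39 genes of complex I, 63.6 over the 4 of complex II, 104 over the 8 of complex III, 121 over the 20 of complex IV and 137 over the 17 of complex V. Summed over genes, complex I had 2707 ± 169 nuclear and 33590 ± 2350 mitochondrial FPKM, and complex IV 2559 ± 177 and 50520 ± 3094 (SD, n = 32). Tissue isoforms of complex IV were separated by wide margins. Cox6a1 had 238 FPKM, against 5.26 for Cox6a2, its heart and muscle form. Cox8a had 271 FPKM, against 0.592 for the muscle form Cox8b and 0.0019 for the testis form Cox8c. Cox6b1 had 236 FPKM, against 3.07 for the testis form Cox6b2. Cox4i1 stood at 423 FPKM, against 2.72 for Cox4i2, the form known from lung. Cox7a2 had 121 FPKM, against 1.47 for the muscle form Cox7a1, and Cox7b had 103, against 0.443 for Cox7b2.

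Of the 101 genes, 96 passed the filter on low counts, 83 nuclear and all 13 mitochondrial. The others, Ndufa11b, Ndufs6b, Cox6c2, Cox8c and Atp5g2, were at or near 0 counts in every library. Atp5g1, Atp5g2 and Atp5g3 encode the same mature protein, and Ndufb4c, a processed copy of Ndufb4, had 76.5 FPKM against 18.2 for Ndufb4. How reads were divided within these families is not given in the sources used here, so values of Ndufb4, Ndufb4c and the Atp5g genes are uncertain. Over all 96 libraries the coefficient of variation of the CPM was lowest for Atp5a1 (3.61%) and Sdha (4.24%), the large subunits of complexes V and II. Among genes above 10 FPKM it was highest for Uqcrq, Cox8a and Uqcr11, small subunits of complexes III and IV (15.8%, 13.5% and 12.8%).

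**Figure D1:**
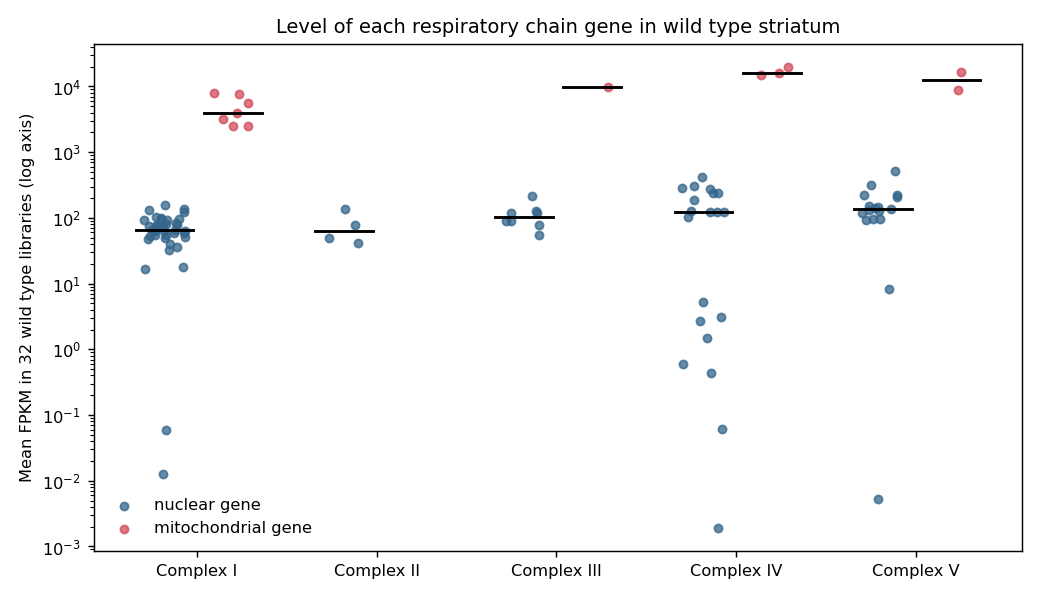
Mean FPKM of each of the 101 genes over 32 WT libraries (log axis) by complex, nuclear genes in blue and mitochondrial genes in red, with the median of each set as a bar. Every mitochondrial gene lies at or above 2505 FPKM and every nuclear gene at or below 519, and complex IV holds the low tissue isoforms.

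In Q140 mice at 6 months, 9 of the 96 genes passed the threshold, an adjusted p under 0.05 in the quasi-likelihood test of edgeR with Benjamini-Hochberg adjustment over all 17339 genes tested. That is a smaller share than among all genes, of which 23.7% passed (2036 higher and 2078 lower). The 3 that rose were Atp5g1, Atp5b and Ndufs1. The 6 that fell were Ndufs3, Ndufs4, Ndufa5 and Ndufb10 of complex I, Atp5l (subunit g of ATP synthase) and Cox7a2l. By complex, 1 rose and 4 fell of 44 in complex I, none of 4 in II and of 9 in III, 1 fell of 21 in IV, and 2 rose and 1 fell of 18 in V. The median log2 fold change was -0.02 over the 96 genes, with 62 below 0, and 0.01 over all genes. The called changes were small, from -0.17 to 0.18 on the log2 scale.

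Ndufs3 had the smallest p of the 96 genes. Its 8 Q140 libraries ran from 72.2 to 78.3 CPM with a median of 76.4, and its 16 WT libraries from 79.0 to 93.4 with a median of 83.7. Every Q140 library lay below every WT library. The log2 fold change was -0.17 ± 0.03 (SE, adjusted p = 3.17e-06). It passed the threshold under all 16 alternative settings and with any 1 of the 24 libraries left out.

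Atp5g1 ran from 83.1 to 93.8 CPM in Q140 libraries (median 88.2) and from 71.3 to 93.3 CPM in WT libraries (median 77.0). The ranges overlap, since 1 WT library reached 93.3. The log2 fold change was 0.18 ± 0.04 (SE, adjusted p = 0.00044). Atp5b ran from 997 to 1073 CPM in Q140 mice, from 963 to 1067 CPM in the Q20-cohort WT and from 879 to 975 CPM in the Q50-cohort WT. Its Q140 libraries thus lay above every Q50-cohort WT library and among the Q20-cohort ones. The log2 fold change was 0.11 ± 0.02 against both cohorts (SE, adjusted p = 0.000884), 0.16 against the Q50 cohort alone (adjusted p = 3.85e-05) and 0.06 against the Q20 cohort alone (adjusted p = 0.188).

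The ranges of the other called genes overlapped with WT. Ndufs1, the largest iron-sulphur subunit of complex I, ran from 146 to 156 CPM in Q140 mice and from 131 to 161 CPM in WT (log2 fold change 0.07, adjusted p = 0.0494, and 0.0530 without the 4 libraries that stand apart). Ndufs4, an accessory subunit whose loss in mice is a model of Leigh syndrome, ran from 48.3 to 52.7 CPM in Q140 mice and from 50.6 to 63.4 CPM in WT (-0.12, adjusted p = 0.0085). Atp5l fell by 0.14, Ndufa5 by 0.12, Cox7a2l by 0.11 and Ndufb10 by 0.10 on the log2 scale, with adjusted p from 0.0169 to 0.0337. These calls were less steady: Ndufs1 passed in 6 of 16 alternative settings, Ndufa5 in 7, Cox7a2l in 8, Ndufb10 in 9, Atp5l in 10 and Ndufs4 in 11.

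None of the 13 mitochondrial genes passed at 6 months, and none had an unadjusted p under 0.05; DESeq2 called none either. mt-Co1 ran from 29840 to 33130 CPM in Q140 mice and from 26660 to 33570 CPM in WT, with all Q140 values inside the WT range. Log2 fold changes of the 13 ran from -0.08 (mt-Nd3) to 0.08 (mt-Nd4l), and the 95% interval of each lay within 1.2-fold. The same held for 78 of the 83 nuclear genes. The 5 whose interval was wider were the low isoforms Cox4i2, Cox6a2, Cox7a1, Cox7b2 and Cox8b. No member of an isoform pair passed at this age.

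**Figure D2:**
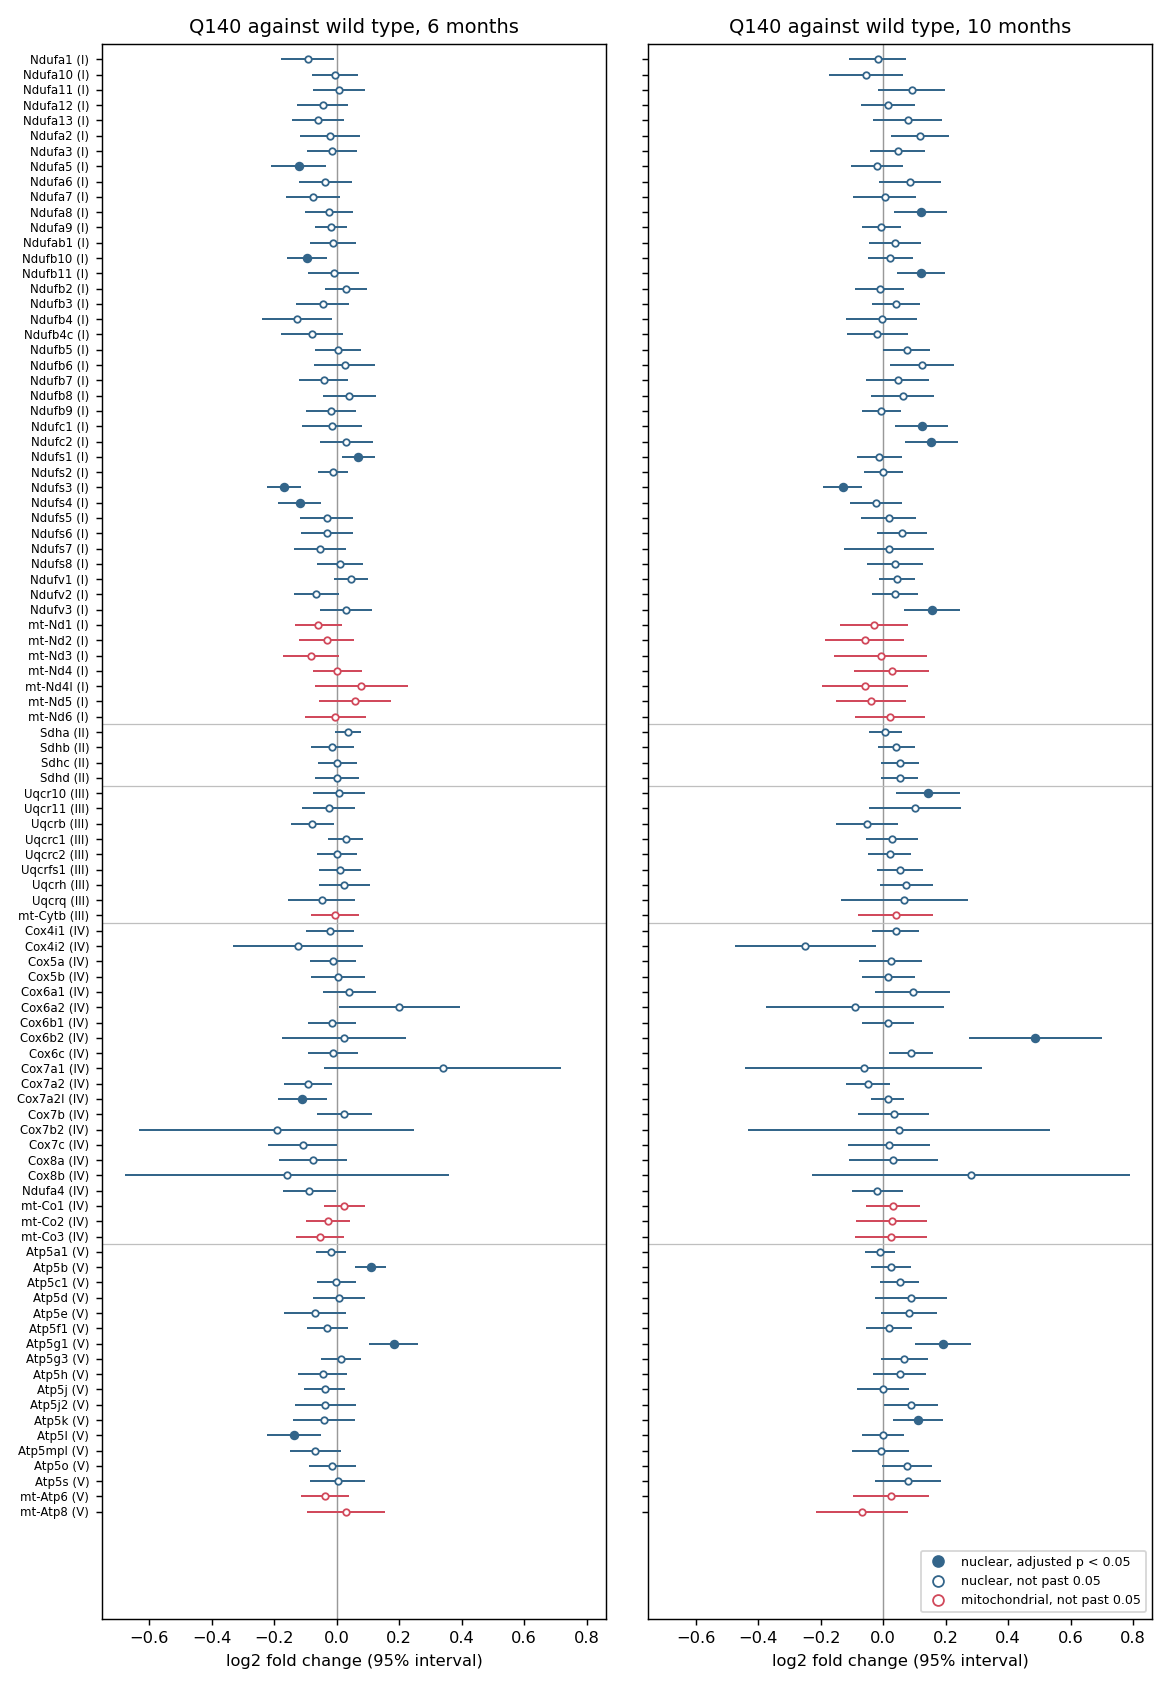
Log2 fold change (points) with its 95% interval (lines) of each of the 96 tested genes in Q140 against WT mice at 6 months (left) and 10 months (right), ordered by complex; filled points passed an adjusted p of 0.05, blue is nuclear and red mitochondrial. Ndufs3 lies below 0 and Atp5g1 above it at both ages, and no mitochondrial gene is filled.

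At 10 months, 10 of the 96 genes passed in Q140 mice, 9 higher and 1 lower, against 19.2% of the 17285 genes tested. Those that rose were Ndufv3, Ndufc2, Ndufc1, Ndufb11 and Ndufa8, all accessory subunits of complex I, Uqcr10 of complex III, Cox6b2 of complex IV, and Atp5g1 and Atp5k (subunit e) of complex V. Ndufs3 fell. No gene of complex II passed. None of the 13 mitochondrial genes passed either, had an unadjusted p under 0.05 or was called by DESeq2. The median log2 fold change was 0.04 over the nuclear genes, 0.02 over the mitochondrial genes (7 of 13 above 0) and 0.01 over all genes. With the mean level of 10 thalamus genes as a covariate the nuclear median was 0.08 and the mitochondrial one -0.05, with 1 of 13 above 0, so the direction of the mitochondrial median depends on that term.

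A single library carried much of this. Q140 M4 at 10 months had the highest nuclear share of counts of all 96 libraries, 1.015%, where the other 7 of its group ran from 0.816% to 0.900%, and also the highest mitochondrial share, 12.7%. Without it, 43 of 96 genes instead of 70 had a fold change above 0, the median of the 96 was -0.01 instead of 0.03 (0.00 over the nuclear and -0.02 over the mitochondrial genes, 3 of 13 above 0), and 6 genes passed: Ndufs3, Cox6b2 and Atp5g1 as before, and Ndufa5, Cox4i2 and Uqcrb, all lower. Ndufv3, Ndufc2, Ndufc1, Ndufb11, Ndufa8, Uqcr10 and Atp5k no longer passed, with log2 fold changes of 0.06 to 0.11. Ndufv3, for example, had 64.0 CPM in M4 and 41.7 to 47.1 CPM in the other Q140 libraries, against 37.7 to 46.3 CPM in WT. Without F1, 5 genes passed (Cox6b2, Atp5g1, Ndufs3, Ndufv3 and Ndufc2).

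Ndufs3 ran from 70.6 to 92.7 CPM in Q140 mice at 10 months (median 76.1) and from 80.4 to 92.6 CPM in WT (median 83.2). M4 held the highest Q140 value, and the other 7 lay below every WT library. The log2 fold change was -0.13 ± 0.03 (SE, adjusted p = 0.0020), and -0.17 without M4 (adjusted p = 1.1e-05). Atp5g1 ran from 79.5 to 100.2 CPM in Q140 mice (median 85.0) and from 69.0 to 81.8 CPM in WT (median 74.8), and 6 of 8 Q140 libraries lay above every WT library. Its log2 fold change was 0.19 ± 0.04 (SE, adjusted p = 0.0015), and 0.16 without M4 (adjusted p = 0.0121).

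Cox6b2, the testis form of a subunit that faces the intermembrane space, had the largest called change. It ran from 1.37 to 2.54 CPM in Q140 mice (median 2.06) and from 1.07 to 1.91 CPM in WT (median 1.49), with 6 of 8 Q140 libraries above every WT library. The log2 fold change was 0.49 ± 0.11 (SE, adjusted p = 0.00077). At 6 months the Q140 libraries ran from 1.56 to 1.86 CPM, inside the WT range of 1.29 to 2.20 CPM, and the log2 fold change was 0.02 with a 95% interval from -0.17 to 0.22. The Q140 effect on Cox6b2 at 10 against 6 months differed by 0.47 ± 0.14 on the log2 scale (SE, unadjusted p = 0.00137, adjusted p = 0.0613; DESeq2 adjusted p = 0.0465). Its counterpart Cox6b1 had log2 fold changes of 0.02 at 10 months and -0.02 at 6 months. The other isoforms did not pass at 10 months with all libraries.

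**Figure D3:**
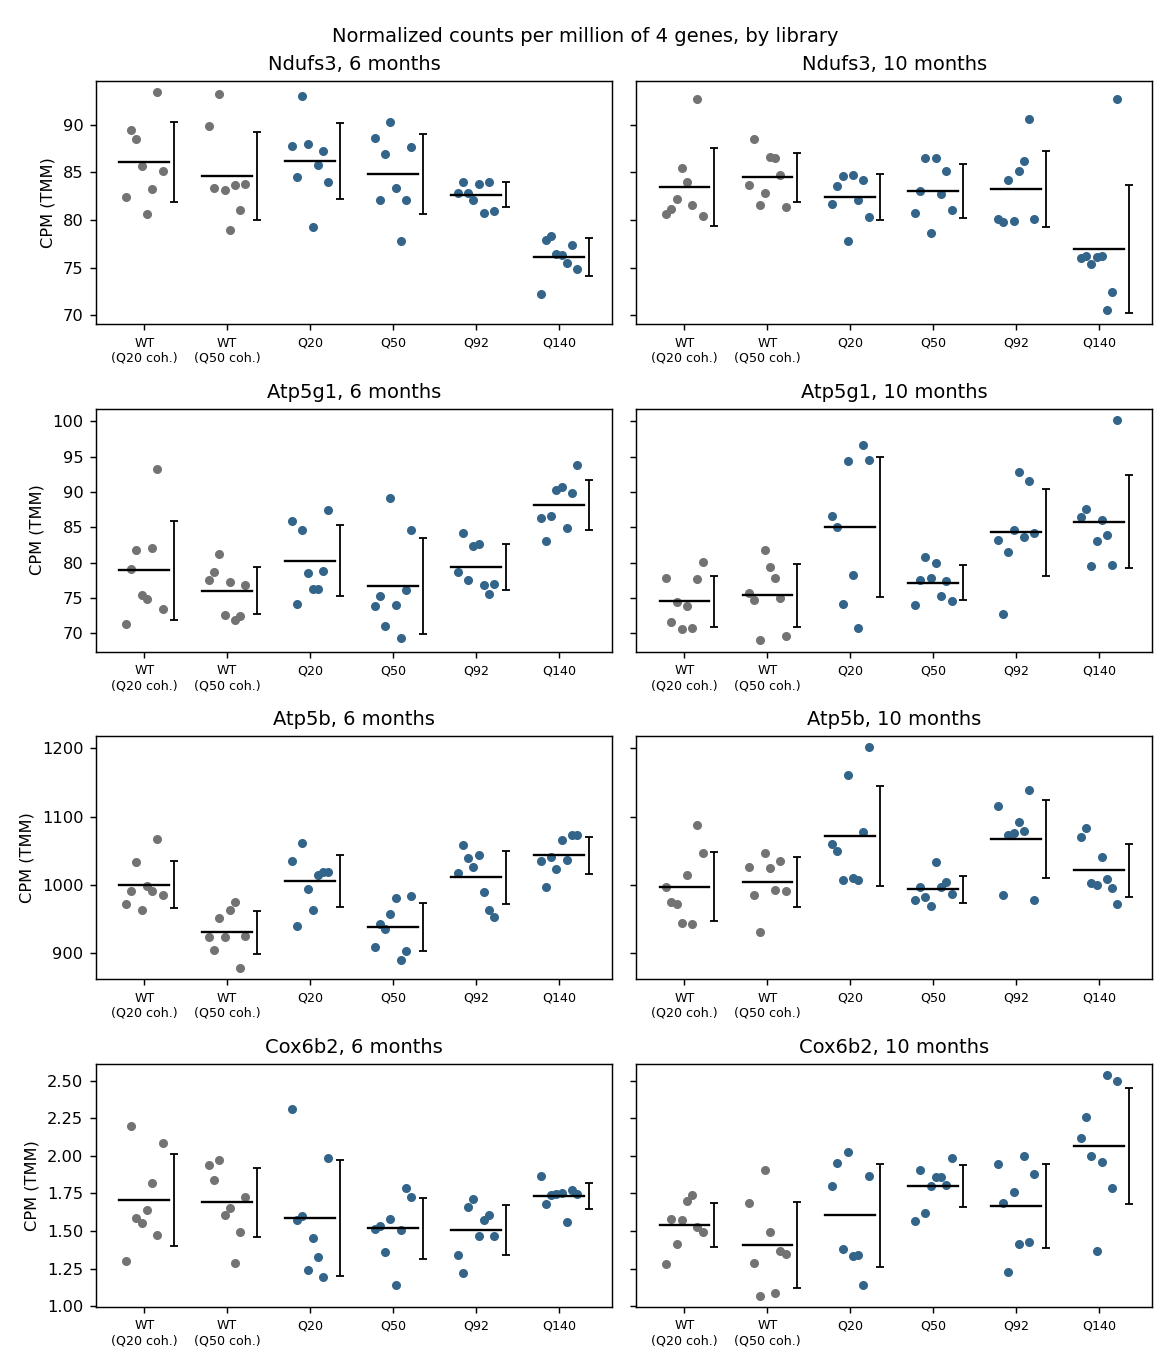
CPM of Ndufs3, Atp5g1, Atp5b and Cox6b2 in every library by group at 6 and 10 months (points: libraries; line: mean; bar: 1 SD each way; WT cohorts in grey at the left, knock-in groups in blue). Ndufs3 in Q140 mice lies below the WT libraries at 6 months, and at 10 months in all but M4.

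Ndufs3 and Atp5g1 were the 2 genes called at both ages, in the same direction each time, of 17 called at either age. Over all genes tested at both ages, 1541 of 5875 were called at both. The test of the difference itself, the Q140 effect at 10 against 6 months, called 0 of the 96 genes with edgeR, against 1.27% of 17670 genes. At an unadjusted p under 0.05 there were 18, all of them positive, and DESeq2 called 1, Cox6b2. The share of all genes at that unadjusted p is not given here. Medians of all genes of like length are given further on, and the test includes Q140 M4 of 10 months, described above. The fold changes at the 2 ages share no libraries.

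Markers of other cells differed between Q140 mice and the mean of both WT cohorts. Of the 25 striatal projection neuron genes, 24 fell at 6 months and 12 at 10 months, with mean levels of 8.02 to 8.54 log2 CPM in Q140 mice and 8.65 to 9.07 log2 CPM in WT at 6 months. In bulk tissue, fewer cells of a type and less RNA per cell cannot be told apart. The 10 thalamus genes were all higher at 6 months (5 past the threshold, median log2 fold change 0.74). They were all lower at 10 months (0 past the threshold with edgeR, 8 at an unadjusted p under 0.05, median -0.94). At 6 months their mean level averaged 4.33 log2 CPM in Q140 mice, 4.16 log2 CPM in the Q20-cohort WT and 3.08 log2 CPM in the Q50-cohort WT. The Q140 mice thus lay near the Q20 cohort and above the Q50 cohort. Their mean level ran from 2.44 to 4.95 log2 CPM in Q140 mice and from 2.46 to 5.71 log2 CPM in WT at 10 months. With that level as a covariate, 15 respiratory chain and ATP synthase genes were called at 6 months (2 higher and 13 lower). At 10 months 30 were called (28 higher and 2 lower). The share of all genes called with that covariate is not given here, so these counts cannot be set against it. At 10 months 6 of 12 astrocyte genes, 4 of 12 oligodendrocyte genes and 4 of 12 blood vessel genes fell, and at 6 months 3 of 10 cortical projection neuron genes fell and 1 rose. Striatal interneuron genes (2 of 14 lower at 6 months), microglia, choroid plexus (1 of 10 lower at 6 months) and skeletal muscle genes (1 of 9 lower at 6 months) showed few or no calls. In the fits without the thalamus level as a covariate, 23.7% of all genes passed at 6 months and 19.2% at 10 months, both directions counted. The part of these differences in the gene values was not tested.

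Genes around the respiratory chain were read from lists chosen with earlier results of these data known. At 6 months the 45 assembly factors held 2 that rose and 2 that fell (8.89%, against 23.7% of all genes): Acad9 and Tmem126b, both of complex I assembly, rose by 0.09 and 0.08 on the log2 scale, and Bcs1l, which inserts the iron-sulphur protein of complex III, and Sdhaf2 had log2 fold changes of -0.14 and -0.09. At 10 months 8 rose and 2 fell, and this 22.2% lay near the 19.2% of all genes. Among them were Cox16, Cox19 and Cox20 of complex IV assembly (0.24, 0.18 and 0.19) and Lyrm7 and Ttc19 of complex III (-0.17 and -0.16). Of 13 electron carrier genes 3 rose at 6 months (23.1%, near the share of all genes), the ubiquinone synthesis genes Pdss1, Coq3 and Coq6 (0.17, 0.15 and 0.12), and Etfdh rose at 10 months. Of 22 genes of mitochondrial DNA expression, Fastkd1 and Tbrg4 rose and Hsd17b10 and Fastkd5 fell at 6 months, and Ssbp1, the mitochondrial single-stranded DNA binding protein, rose by 0.20 at 10 months.

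Of 13 nuclear regulators 3 rose at 6 months, or 23.1%, near the 23.7% of all genes: Ppargc1a, the coactivator PGC-1α (0.19 ± 0.05, adjusted p = 0.00997), Esrrg, an oestrogen-related receptor (0.30 ± 0.11, adjusted p = 0.0478), and Sp1 (0.10). At 10 months Ppara fell (-0.38) and none rose. Citrate synthase (Cs) rose at 6 months and Mdh2 at 10 months among 14 citrate cycle genes, and Pdha1 and Pdk1, each at 1 age, among 10 genes of pyruvate entry. In glycolysis, Hk1 and Gpi1 rose and Eno1 fell at both ages, of 16 genes; Eno2 and Tpi1 also fell at 6 months, and at 10 months Pfkl rose and Pfkp and Aldoc fell. Calls made up 31.3% of the glycolysis genes at 6 months and 37.5% at 10 months, and 7.14% of the citrate cycle and 10.0% of the pyruvate entry genes at each age, against 23.7% of all genes at 6 months and 19.2% at 10 months. Medians of these lists lay between -0.07 and 0.10 on the log2 scale, against 0.01 over all genes at both ages.

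The shorter alleles gave no calls among the 96 genes with edgeR. The share of all genes at an unadjusted p under 0.05 is not given here, so the unadjusted counts below cannot be set against it. In Q20 mice it was 0 at 6 months, against 0.0231% of all genes (1 at an unadjusted p under 0.05, 0 with DESeq2), and 0 at 10 months, against 0.0405% (19 unadjusted, 0 with DESeq2). In Q50 mice it was 0 at both ages, against 0.0634% of genes at 6 months and 0.0636% at 10 months (1 unadjusted at each age, 0 with DESeq2). In Q92 mice it was 0 at 6 months, against 5.44% (7 unadjusted; DESeq2 called 1, Atp5b), and 0 at 10 months, against 0.422% (13 unadjusted, all higher; DESeq2 called 1, Atp5g1). In Q92 mice at 10 months 81 of the 96 fold changes were above 0 with a median of 0.05, against 0.00 over all genes and 0.02 over all genes below 600 bases. Atp5g1 there ran from 72.7 to 92.8 CPM, against 69.0 to 81.8 CPM in WT, with 6 of 8 Q92 libraries above every WT library (0.16 ± 0.04, adjusted p = 0.0886). Ndufs3 in Q92 mice had log2 fold changes of -0.05 at 6 and -0.02 at 10 months.

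In Q20 mice at 10 months, where no gene passed, the medians of the 2 genomes lay on opposite sides of 0; the difference between genomes was not tested. All 13 mitochondrial genes were below WT with a median log2 fold change of -0.14, and 69 of 83 nuclear genes were above it with a median of 0.06. The libraries F4 and M4 of this group were low in projection neuron genes, as given above, and had the lowest mitochondrial shares of all 96 libraries (8.87% and 9.44% of counts). Without the 4 libraries that stand apart the mitochondrial median was -0.05 and the nuclear one 0.02. The 2 WT cohorts of this age, described further on, also differed in all 13 mitochondrial genes, with a median of -0.09. Atp5g1 at 10 months had a median of 85.0 CPM in Q140 and 85.8 CPM in Q20 mice, and Q140 against Q20 mice gave a log2 fold change of 0.01 (adjusted p = 0.907).

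A linear trend in CAG length was fitted within each age to the 32 knock-in libraries and scaled to the step of 120 between Q20 and Q140. Each CAG length had its own housing cohort, so CAG length and cohort cannot be told apart in this trend. At 6 months the trend called 9 of 96 genes, against 17.3% of genes. Median Ndufs3 levels ran 83.7 CPM in WT, 86.5 in Q20, 85.1 in Q50, 82.8 in Q92 and 76.4 in Q140 mice, and the slope was -0.18 ± 0.03 (SE, adjusted p = 2.78e-05). Atp5g1, with medians of 77.0, 78.7, 74.7, 78.1 and 88.2 CPM in the same order, was the gene with a positive slope (0.15, adjusted p = 0.0189). The other 7 slopes were negative: Ndufb10, Ndufs4, Ndufa5, Cox7a2l, Atp5l, Uqcrb (from -0.13 to -0.09) and Cox8b (-0.78, adjusted p = 0.0305), the last at medians of 0.18 to 0.31 CPM in the knock-in groups. Ndufs3 and Atp5g1 passed in all 11 alternative settings and with any 1 of the 32 libraries left out. The others were less steady. Ndufa5 passed in 3 of 11 settings and with 11 of 32 libraries left out in turn, Atp5l in 6 and 21, Cox7a2l in 8 and 28, and Cox8b in 7 of 10 settings and 28. Ndufs4 and Uqcrb passed in 8 and Ndufb10 in 9 of 11 settings, and these 3 with any library left out.

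At 10 months the slope called 3 of 96 genes, against 24.0% of genes, all positive: Ndufv3 (0.18, adjusted p = 0.0141), Atp5k (0.14, adjusted p = 0.0232) and mt-Nd6 (0.18, adjusted p = 0.0218). All 13 mitochondrial slopes were positive, with a median of 0.14, against 0.01 over the nuclear genes. With the thalamus level as a covariate 10 of 13 were positive with a median of 0.03, and mt-Nd6 did not pass (adjusted p = 0.137). The nuclear median was then 0.10, against 0.02 over all genes. With that term 14 nuclear genes passed, all positive, and the share of all genes called is not given here. mt-Nd6 had medians of 1309 CPM in WT, 1179 in Q20, 1196 in Q50, 1307 in Q92 and 1336 in Q140 mice, so that the Q20 and Q50 medians lay below that of WT. It did not pass without the 4 libraries that stand apart (adjusted p = 0.0578), and the median of the 13 was then 0.07. It also did not pass without Q20 F4 or without Q140 M4. Atp5k did not pass without Q140 M4 (adjusted p = 0.114) or with the L number of the library names as a term, while Ndufv3 passed in all 11 alternative settings and with any library left out.

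Summed over genes, the 13 mitochondrial mRNAs took 8.87% to 12.7% of all counts and the 88 nuclear genes 0.782% to 1.015%. The mitochondrial share averaged 11.3% ± 0.43 in Q140 mice (SD, n = 8) and 11.1% ± 0.61 in WT (SD, n = 16) at 6 months, and 11.4% ± 0.59 and 11.0% ± 0.77 at 10 months in the same order. The nuclear share averaged 0.863% ± 0.012 in Q140 mice and 0.845% ± 0.054 in WT at 6 months, and 0.872% ± 0.066 and 0.828% ± 0.024 at 10 months. Groups overlapped in both shares at both ages.

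**Figure D4:**
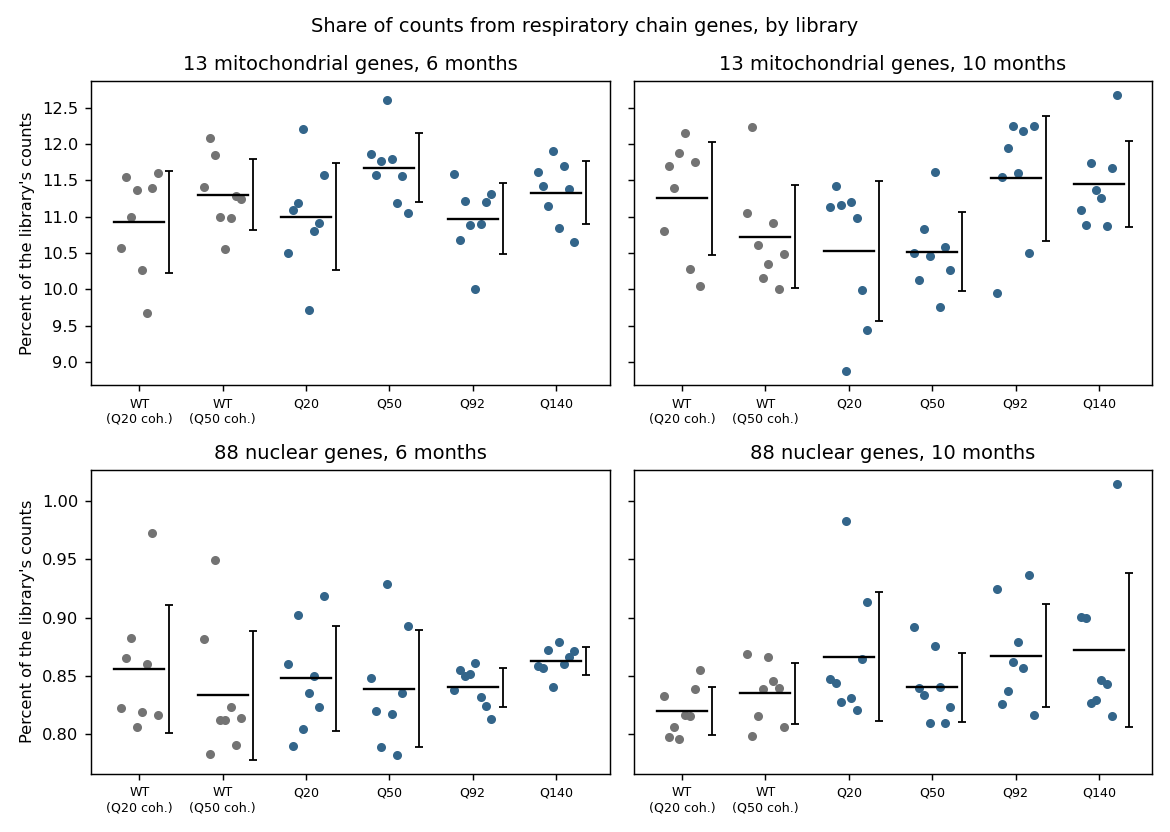
Share of counts from the 13 mitochondrial and the 88 nuclear genes in every library by group at 6 and 10 months (points: libraries; line: mean; bar: 1 SD each way; grey WT, blue knock-in). Q20 F4 and M4 at 10 months have the lowest mitochondrial shares, and Q140 M4 at 10 months the highest nuclear share.

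The 2 WT cohorts, Q50 cohort against Q20 cohort, served as a measure of differences without a mutant allele. The share of all genes at an unadjusted p under 0.05 is not given here, so the unadjusted counts cannot be set against it. At 6 months 0 of 96 genes passed, as did 0.0% of all genes (14 of the 96 unadjusted; DESeq2 called 3, all lower in the Q50 cohort). Atp5b averaged 931 CPM in the Q50 cohort and 1000 CPM in the Q20 cohort (-0.10 ± 0.03, adjusted p = 0.109). At 10 months 0 passed, against 0.347% of all genes (2 unadjusted, 0 with DESeq2), although all 13 mitochondrial genes were lower in the Q50 cohort, with a median log2 fold change of -0.09.

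Of the main fits, the one between WT ages held the most calls among the 96 genes. It set 16 libraries against 16, where the Q140 comparisons set 8 against 16. Age and the run of library numbers cannot be told apart here, as given further on. Between WT mice of 10 and of 6 months, 29 of the 96 genes passed, 3 higher and 26 lower, against 9.55% of 17670 genes. All 29 were nuclear. The falls were spread over complexes: 14 of 44 genes in complex I, 3 of 9 in III, 5 of 21 in IV and 4 of 18 in V. The 3 that rose were Ndufs1 (0.10, adjusted p = 0.0042), Uqcrc2, a core protein of complex III (0.08, adjusted p = 0.0469), and Sdha, the succinate-oxidising subunit of complex II (0.05, adjusted p = 0.0494). Ndufs1 passed in all 11 alternative settings and with any 1 of the 32 WT libraries left out, Uqcrc2 in 6 of 11 and with 25 of 32 left out in turn, and Sdha in 7 of 11 and 30 of 32. With the thalamus level as a covariate 1 gene rose and 33 fell, and the share of all genes called with that term is not given here. The median log2 fold change was -0.05 over nuclear, -0.01 over mitochondrial and 0.00 over all genes. Each of the 13 mitochondrial genes had a 95% interval within 1.2-fold, none had an unadjusted p under 0.05, and DESeq2 called none.

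Uqcrq, a small subunit of complex III, had 31.3 to 51.6 CPM at 10 months (median 44.2) and 42.0 to 63.4 CPM at 6 months (median 53.0). The ranges overlap, and 7 of 16 libraries of 10 months lay below every one of 6 months. It had the largest fall, -0.32 ± 0.07 on the log2 scale (SE, adjusted p = 0.00047). Cox8a, a small subunit of complex IV, had 111 to 161 CPM at 10 months (median 135) and 132 to 197 CPM at 6 months (median 162), a log2 fold change of -0.25 (adjusted p = 0.00032). Uqcr11 had -0.26, Ndufs7, an iron-sulphur subunit of complex I, -0.24, Cox7c -0.22, and Atp5d and Atp5e, of the central stalk of ATP synthase, -0.19 and -0.18.

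These genes are short: the length implied by the deposited counts and FPKM had a median of 723 bases over the 83 nuclear genes and 2560 over all genes tested. Below 600 bases, 13 of 28 of the genes were lower at 10 months and the median log2 fold change was -0.10. Over all 518 genes of that length the median was -0.03, and 71 fell and 72 rose. From 600 to 1000 bases 10 of 33 fell, with a median of -0.06, against 185 that fell and 86 that rose of all 1335 genes, with a median of -0.04. From 1000 to 2000 bases 2 fell and 1 rose of 18 (median -0.01), against 374 and 128 of all 4605 genes (median -0.02), and above 2000 bases 1 fell and 2 rose of 4, against 400 and 371 of all 11212. A list of 93 cytosolic ribosomal protein genes, also short, held 5 that rose and 39 that fell (median -0.09). The 10 thalamus genes were all higher at 10 months (2 past the threshold, median 0.68). Libraries of the 2 ages carry separate runs of numbers, so age and run cannot be told apart.

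Length and ribosomal protein genes were set beside the Q140 fold changes in the same way. Below 600 bases the median at 6 months was -0.04 over 28 of the genes and -0.05 over all genes, and at 10 months 0.04 and 0.03. For the Q140 effect at 10 against 6 months it was 0.11 over the 28 genes and 0.11 over all genes. From 600 to 1000 bases that effect had medians of 0.08 over 33 of the genes and 0.10 over all genes. Of the ribosomal protein genes 0 rose and 32 fell of 92 at 6 months (median -0.10), and 12 rose and 4 fell of 93 at 10 months (median 0.06).

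**Figure D5:**
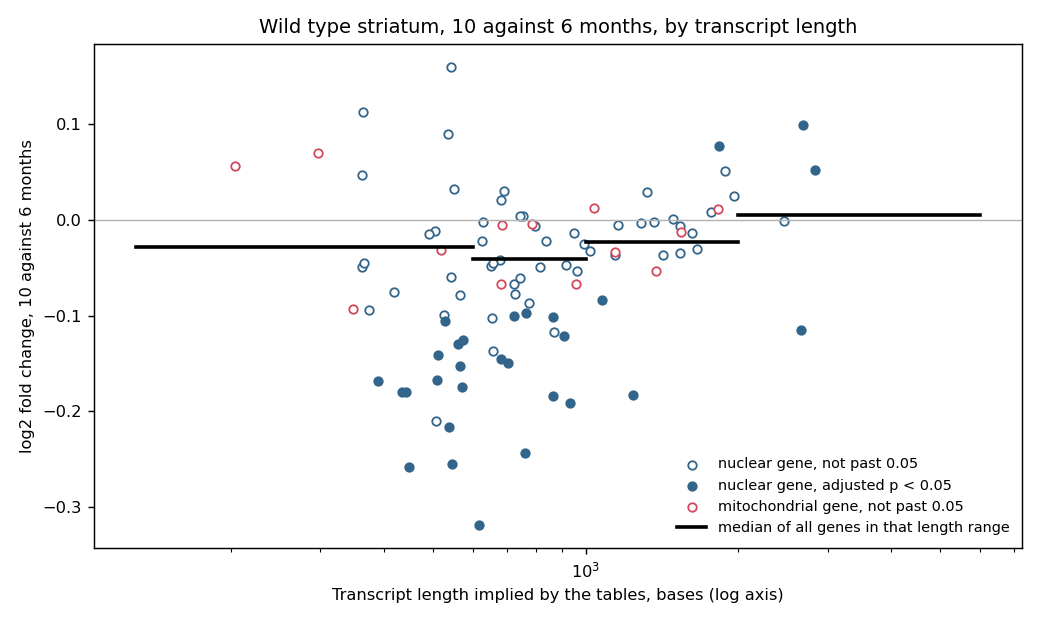
Log2 fold change between WT mice of 10 and 6 months against implied transcript length in bases (log axis) for the tested genes (blue nuclear, red mitochondrial, filled where the adjusted p was under 0.05), with the median of all genes in each length range as a black line. Of the 26 nuclear genes that fell, 13 are under 600 bases and 10 from 600 to 1000.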

How the data were processed

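The authors deposited 2 tables of 39179 genes by 96 striatal libraries. Per the deposited table, the expected counts are estimated reads per gene without normalization (27.7% of non-zero values fractional at a tolerance of 0.001), and FPKM were scaled by the authors to transcript length and library total. CASAVA 1.8.2 is named in the submitters' processing notes; the sources used here give no aligner, quantifier, build or strand setting. Symbols came from GENCODE M21 for 37607 identifiers, and 0 table columns were left over.

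Expected counts were rounded and tested with edgeR 4.0.16 (robust quasi-likelihood F test, TMM, filterByExpr; R 4.3.3), two-sided, with Benjamini-Hochberg adjustment over all genes and a threshold of 0.05. Each age was fitted alone (48 libraries, group plus sex); age and the Q140 effect by age used all 96. CPM carry TMM factors; errors of fold changes are SE. Alternatives were RLE, 2 other count filters, DESeq2 1.42.0, limma 3.58.1 on log2 FPKM (pseudocount 1 or 0.1, genes with a mean of at least 0.1), library totals without mitochondrial genes, replicate number, the L number in the library names or the thalamus level as a term, other controls, either sex alone, and each library left out. After the data were seen, a fit without 4 libraries was added. The scripts were tested on simulated counts.

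The members, lists and tests were chosen with earlier results of these data known. Named genes were the 13 mitochondrial genes, the isoform pairs, up to 6 largest rises and 6 largest falls past the threshold (mean log2 CPM 1 or above), and the smallest p of each complex; other names come from short lists of all calls or from the lists given, chosen after their values were seen.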

Additional observations from a re-analysis of the deposited data

Results flagged for a closer look

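In 108 checks of groups of 8 libraries, 8 held a library whose gap to its nearest neighbour, over the range of its group, was above Dixon's critical value of 0.526. Chance alone marks about 1 group in 20.

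Of these, 4 concern library M4 of Q140 mice at 10 months. Its nuclear respiratory genes took 1.015% of counts, where the other 7 libraries ran from 0.816% to 0.900%. It had 92.7 CPM of Ndufs3 (others 70.6 to 76.2), 100.2 CPM of Atp5g1 (others 79.5 to 87.6) and 64.0 CPM of Ndufv3 (others 41.7 to 47.1). Its total of 31.8 M counts and its projection neuron level of 8.29 log2 CPM lay within the ranges of its group.

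WT of the Q20 cohort held 2: library M3 at 6 months with a nuclear share of 0.973% (others 0.807% to 0.883%) and library M3 at 10 months with 92.6 CPM of Ndufs3 (others 80.4 to 85.5). WT of the Q50 cohort held 2: library F2 at 10 months with a mitochondrial share of 12.2% (others 10.0% to 11.0%) and library F2 at 6 months with 1653 CPM of mt-Nd6 (others 1265 to 1445).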

How the results depend on the processing

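Among the named genes no fold change or slope past the threshold reversed under an alternative. Medians over the 13 mitochondrial genes, none of which passed in these comparisons, changed sign with the thalamus level as a term: for Q140 mice to -0.05 at 10 months and 0.03 at 6 months, for Q92 mice at 6 months to 0.03, for the 6-month slope to 0.01, for the Q140 effect by age to -0.05 (0 of 13 above 0, against 9), for the WT cohorts at 6 months to -0.01 (3 of 13, against 12; nuclear median 0.03, against -0.02) and for WT age to 0.01. Ndufs3 in Q140 mice passed in all 16 alternatives at 6 months and in 15 at 10 months (not in males alone). Among the 96 genes, the Q140 count at 6 months (9) was 15 with the thalamus level as a term, 2 against Q20 mice, 3 against the Q20-cohort WT alone, 1 in females and 2 in males. At 10 months (10) it was 16 with limma on log2(FPKM + 0.1), 18 with the L number, 30 with the thalamus level, 6 against Q20 mice, 6 against the Q50-cohort WT alone, and 1 in either sex alone. The Q92 count (0) was 1 at 6 months with DESeq2, the L number or without the 4 libraries, 2 against the Q50-cohort WT alone, and 1 at 10 months with DESeq2 or the thalamus level. The Q20 count at 10 months (0) was 23 with the L number. The 6-month slope (9) gave 5 and 4 with limma (pseudocounts 1 and 0.1) and 5 with the L number. The 10-month slope (3) gave 5 with RLE and with DESeq2, 8 with limma at either pseudocount, and 14 with the thalamus level. The WT cohorts at 6 months (0) gave 3 with DESeq2. The Q140 effect by age (0) gave 1 with DESeq2, 11 with the thalamus level and 1 without the 4 libraries. WT age (29) gave 19 with limma at either pseudocount. The cause of these moves was not tested, and single-sex fits hold fewer libraries. Shares of all genes called under these alternatives are not given here, so the counts cannot be set against them.

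Leaving out 1 library gave 6 to 11 for Q140 at 6 months, 5 to 14 at 10 months (5 without Q140 F1, 6 without Q140 M4), 0 to 1 for Q92 at 6 months (1 without M4) and at 10 months (1 without F2), 5 to 12 for the 6-month slope (5 without Q140 F1), 3 to 5 for the 10-month slope (5 without Q20 F3, Q20 M2, Q92 F1 or Q92 M3), 20 to 28 for WT age, and 0 to 0 for the others. Replicate numbers recur in all groups, and no label says that they pair the libraries. Deviations of same-numbered libraries from the mean of their group and sex were correlated over the genes that varied most. Correlations ran from -0.33 to 0.44 at 6 months (120 pairs, 0.02 as the median of the medians of group pairs). At 10 months they ran from -0.54 to 0.51 (0.00 as that median). With the replicate block the counts were 8 and 8 for Q140 at 6 and 10 months, 8 and 3 for the slopes, 26 for WT age and 0 for the others. Genes under 1 CPM, such as Cox8b, have intervals too wide to show a 1.2-fold change.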
